A study of Mus musculus with 91 samples.

Results

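The miRNAs of the epiblast (Epi), the tissue that gives rise to the embryo proper, were compared between *Dnmt*-null and control mouse embryos at E7.5. The comparison took 6 of the 91 libraries of the series, 3 per genotype, and covered all 1504 mature miRNA names of the deposited count table, 113 of them in the Dlk1-Dio3 imprinted locus on chromosome 12. Weight was given to the names outside that locus. The embryos came from zygotes of B6D2F1 females and males carrying an Oct4-EGFP transgene on a C57BL/6J background. The *Dnmt*-null zygotes received mRNA of the base editor hA3A-eBE3-Y130F with guides against *Dnmt1*, *Dnmt3a* and *Dnmt3b*, so that each embryo was its own editing event rather than a member of an established line, and were carried by ICR females. Epi was cut from the extraembryonic ectoderm (Exe) with needles, and small RNA was sequenced by CAS-seq, a Cas9-assisted protocol for picogram inputs. The other group is labelled control, with no further detail of its handling, and the *Dnmt1*-KO and *Dnmt3a/3b*-DKO embryos of the same stage, with 4 libraries each, served as further comparisons. *Dnmt*-null embryos at this stage were described as abnormal, with a primitive streak that failed to elongate, whereas *Dnmt1*-KO and *Dnmt3a/3b*-DKO embryos gastrulated. Whether 1 embryo or several went into a library is not given in the sources used here, and p-values measure the spread between these libraries.

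The 3 DNA methyltransferases set and copy the methyl mark on cytosines, and their joint loss leaves the genome almost without it. A miRNA is cut from a hairpin and guides repression through its seed, bases 2 to 8, so miRNAs with 1 seed largely share their targets. Gastrulation replaces the pluripotent epiblast, marked by the miR-302/miR-367 cluster and by the declining miR-290-295 cluster of embryonic stem cells, with germ layers that begin to express tissue miRNAs such as those of the Hox clusters.

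The mature sequences of the miRNAs that carried the results are given here 5′ to 3′ from RefSeq (GRCm38.p6), with the seed in capitals. Members of an X-linked cluster that were far higher in *Dnmt*-null Epi had different seeds.
miR-470-5p: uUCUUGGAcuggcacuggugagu
miR-741-3p: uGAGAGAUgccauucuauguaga
miR-743a-3p: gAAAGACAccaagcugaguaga
miR-883b-5p: uACUGAGAauggguagcaguca
The seed AAGUGCU was shared by these 2 miR-302/miR-367 members and 2 miR-290-295 members, which moved in opposite directions.
miR-302b-3p: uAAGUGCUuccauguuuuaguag
miR-302d-3p: uAAGUGCUuccauguuugagugu
miR-295-3p: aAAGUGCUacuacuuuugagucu
miR-294-3p: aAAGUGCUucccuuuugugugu
Of the miR-92/25 family, 3 members called lower shared the seed AUUGCAC.
miR-92a-3p: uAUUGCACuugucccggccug
miR-92b-3p: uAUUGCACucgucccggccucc
miR-25-3p: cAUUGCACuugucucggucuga
A seed was also shared by miR-125a-5p, which was higher, and miR-351-5p, which was lower.
miR-125a-5p: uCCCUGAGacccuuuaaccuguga
miR-351-5p: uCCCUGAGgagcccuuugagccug
The remaining sequences belong to other miRNAs whose values are given in the results. The miR-10 pair differed at 1 position, outside the seed.
miR-10a-5p: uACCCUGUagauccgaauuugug
miR-10b-5p: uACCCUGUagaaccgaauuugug
miR-615-3p: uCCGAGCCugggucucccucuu
miR-483-3p: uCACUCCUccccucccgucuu
miR-483-5p: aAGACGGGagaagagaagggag
miR-99b-5p: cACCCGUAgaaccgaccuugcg
miR-142a-5p: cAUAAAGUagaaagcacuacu

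The control libraries held 1623256 to 2325698 miRNA counts and the *Dnmt*-null libraries 272867 to 488108. A count of 3, taken as the limit of detection, was therefore worth 1.41 to 2.06 normalized CPM (counts scaled to a common library total) in control and 5.35 to 10.5 in *Dnmt*-null libraries. Such limits and the intervals given for single values cover counting error only, because PCR copies were not marked as such. The Epi marker cluster miR-302/miR-367 took 22.2% to 23.2% of control counts and 12.0% to 18.5% of *Dnmt*-null counts, against 3.64% to 5.05% in control Exe at E7.5. In bulk tissue, fewer cells of a type and less of a miRNA per cell cannot be told apart.

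Outside the locus, 553 miRNAs passed the filter on low counts, of which 71 (12.8%) were higher and 105 (19%) were lower in *Dnmt*-null Epi at an edgeR adjusted p below 0.05 and an absolute log2 fold change above 0.5. Over all 652 miRNAs tested, 102 (15.6%) were higher and 106 (16.3%) lower. The 2 groups of libraries did not overlap for 65 of the 71 and for all 105, against 48.6% of all miRNAs tested. The balance of the directions depended on the scaling. The median log2 fold change of all miRNAs tested was -0.19 with TMM factors and 0.13 with TMM factors computed without the locus, which held 13.0% to 13.8% of the control counts and 20.8% to 24.8% of the *Dnmt*-null counts. With the second scaling, 85 were higher and 59 lower outside the locus, and of all calls 68.6% were increases, against 49.0% with the first. The moderate decreases of abundant miRNAs are therefore given with both scalings.

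**Figure D1:**
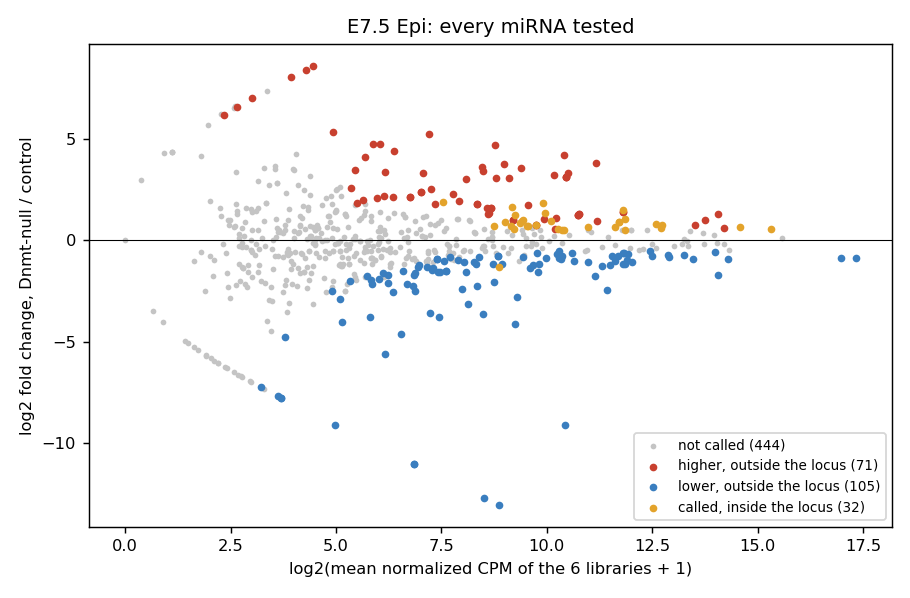
Each point is 1 of the 652 miRNAs tested, with its mean level over the 6 libraries on the x axis, as log2(normalized CPM + 1), and its log2 fold change between *Dnmt*-null and control Epi on the y axis. Red and blue points are the 71 higher and 105 lower miRNAs outside the Dlk1-Dio3 locus, orange points the 32 called inside it, and grey points the rest. The most abundant called miRNAs lie within 2 log2 units of 0, while the large changes in both directions are of miRNAs of low and middle level.

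Among the lists examined, the highest median change was that of a cluster of X-linked miRNAs best known from testis and germ cells. Of its 34 names, 27 were tested, 22 were higher and none was lower, with a median log2 fold change of 3.45 against -0.19 for all miRNAs tested. These names include near-identical copies, such as miR-465a, miR-465b and miR-465c, among which reads cannot be assigned with certainty. The core of the cluster, 12 genes in a stretch of chromosome X (GRCm38, chrX:66776757-66814025), held 21 tested miRNAs with a single gene each, of which 16 were higher and none lower and whose log2 fold changes ran from 2.08 to 8.58. The cluster's share of all counts was 0.13%, 0.277% and 0.0997% in control and 1.69%, 2.37% and 2.13% in *Dnmt*-null libraries, a 12.2-fold difference of the means. No library of one genotype reached the range of the other, and 3 against 3 libraries cannot give an exact permutation p below 0.1.

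miR-470-5p was its most abundant member, with 206, 552 and 163 normalized CPM in the control libraries and 4447, 4259 and 4258 in the *Dnmt*-null libraries. The means of 307 ± 213 and 4321 ± 109 (SD, n = 3 each) gave a log2 fold change of 3.82 ± 0.34 (SE), edgeR adjusted p = 7.6e-07. miR-741-3p stood at 219, 425 and 155 in control and at 1972, 2797 and 3171 in *Dnmt*-null libraries, with a log2 fold change of 3.31 ± 0.32 (SE), edgeR adjusted p = 1.2e-06. In both miRNAs the second control library was the highest control and still far under every *Dnmt*-null library. miR-743a-3p rose from 2.83, 19.3 and 0 to 278, 287 and 293 normalized CPM, with a log2 fold change of 5.24 ± 0.76 (SE), edgeR adjusted p = 6.3e-05. miR-871-5p, miR-883b-5p and miR-465b-5p were near the detection limit in control and had log2 fold changes of 4.38 (edgeR adjusted p = 0.0032), 4.72 (edgeR adjusted p = 0.0028) and 4.12 (edgeR adjusted p = 0.01). miR-881-5p and miR-883a-3p had no count in any control library. Against the limit of 3 counts per control library, averaging 1.73 normalized CPM, their *Dnmt*-null means were at least 24.4-fold and at least 21.3-fold higher.

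The same cluster was also high where only part of the enzymes was missing. It took 1.201% to 1.43% of the counts in *Dnmt1*-KO and 1.90% to 2.70% in *Dnmt3a/3b*-DKO Epi at E7.5. Between *Dnmt*-null and either of these, none of the 27 tested members was called, with median log2 fold changes of 0.66 and -0.22, where 4.75% of all 652 miRNAs were higher than in *Dnmt1*-KO and 5.67% higher than in *Dnmt3a/3b*-DKO. These comparisons share the *Dnmt*-null libraries with that against control. The cluster is also more abundant in Exe, at 0.657% to 1.61% of control Exe counts at E7.5, and the part of Exe cells in its increase was not tested.

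**Figure D2:**
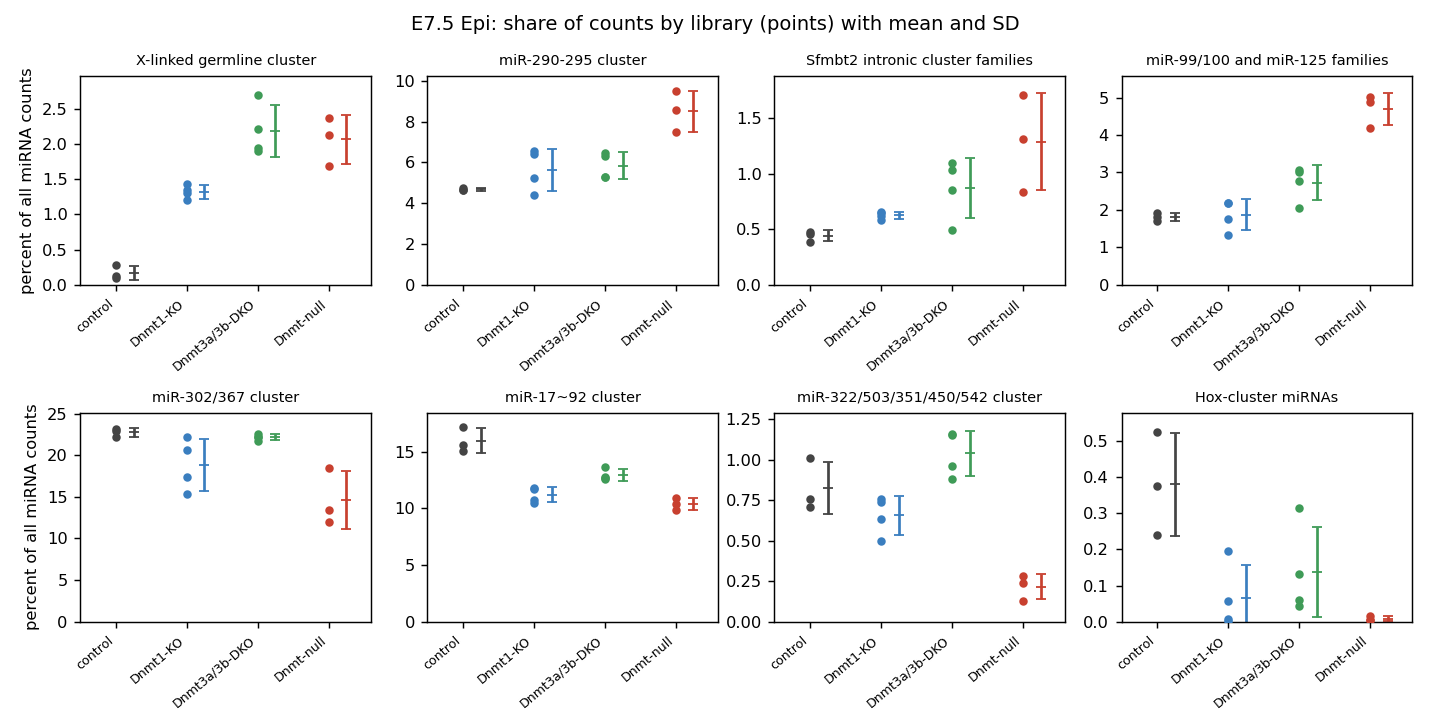
The 8 panels give, for 8 groups of miRNAs, the percent of all miRNA counts (y axis, from 0) in each E7.5 Epi library of the 4 genotypes on the x axis. Points are libraries and the bars beside them the mean and SD (n = 3 for control and *Dnmt*-null, 4 for the others), cut off at 0 for the Hox-cluster miRNAs. The X-linked cluster is high in all 3 mutant genotypes, while the miR-322/miR-503 cluster is low in *Dnmt*-null Epi beside the other mutants.

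The 2 clusters of pluripotent cells moved in opposite directions. Of the 18 miR-290-295 names tested, 11 were higher and none lower, with a median log2 fold change of 0.84; counted once where names held identical counts, 9 of 15 were higher. The stretch chr7:3218626-3220841 held 14 of the tested names as single genes, of which 8 were higher. The cluster's share was 4.65%, 4.64% and 4.76% in control and 8.55%, 9.48% and 7.49% in *Dnmt*-null libraries. Of the 10 miR-302/miR-367 members tested (chr3:127545228-127545807), 6 were lower and none higher, with a median of -0.98, and their share was 23.0%, 23.2% and 22.2% in control and 12.0%, 13.4% and 18.5% in *Dnmt*-null libraries. With the TMM factors computed without the locus, 14 miR-290-295 names were higher and 4 miR-302/miR-367 members lower.

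miR-295-3p stood at 15299, 14899.7 and 15273 normalized CPM in control and at 23331, 24001 and 20719.5 in *Dnmt*-null libraries, a log2 fold change of 0.58 ± 0.15 (SE), edgeR adjusted p = 0.0079. miR-291a-5p went from 8732, 8383 and 9585 to 15201, 16095 and 12876, a log2 fold change of 0.73 ± 0.19 (SE), edgeR adjusted p = 0.0071. Every *Dnmt*-null library was above every control library for both, and also for miR-294-3p, chosen after its values were seen, at 237, 259 and 175 against 541.54, 424 and 683. miR-291b-5p showed a larger difference, 144, 181 and 97.5 against 1802, 2383 and 3572, with a log2 fold change of 4.20 ± 1.17 (SE), edgeR adjusted p = 0.011. Its sequence differs from that of miR-291a-5p at 2 of 22 positions and its values in *Dnmt1*-KO Epi ran from 53.5 to 3675, so its level is uncertain.

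miR-302b-3p, one of the 2 most abundant miRNAs of these libraries, measured 217344, 215461 and 212743 normalized CPM in control and 95435, 97389 and 152950.0 in *Dnmt*-null Epi. The third *Dnmt*-null library lay between the other two and the controls. The means of 215183 ± 2313 and 115258 ± 32657 (SD, n = 3 each) gave a log2 fold change of -0.90 ± 0.15 (SE), edgeR adjusted p = 0.00018, and the value was -0.58 (edgeR adjusted p = 0.0046) with TMM factors computed without the locus. miR-302d-3p stood at 5445, 4493 and 5087 against 1545, 2246 and 3972, a log2 fold change of -0.95 ± 0.25 (SE), edgeR adjusted p = 0.0079, but this call was lost without the first *Dnmt*-null library, at -0.60 (edgeR adjusted p = 0.064), and with the second scaling.

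The ratio of counts between the clusters does not depend on scaling. It was 4.94, 5.01 and 4.66 in the control libraries and 1.40, 1.41 and 2.47 in the *Dnmt*-null libraries (means 4.87 ± 0.185 and 1.76 ± 0.616, SD, n = 3; two-sided exact permutation p = 0.1, the smallest possible). *Dnmt1*-KO and *Dnmt3a/3b*-DKO libraries had ratios of 2.39 to 4.24 and 3.48 to 4.205. The difference from *Dnmt3a/3b*-DKO had a two-sided exact permutation p of 0.0571, the smallest 3 against 4 libraries allow, and that from *Dnmt1*-KO, whose lowest library overlapped, a p of 0.114. One day earlier, control Epi had ratios of 0.833 to 1.44 (n = 4), which overlap the lower of the *Dnmt*-null values at E7.5. *Dnmt*-null Epi at E6.5 had 0.835 to 1.09 (n = 4). The shares behind the ratio were not alike. The miR-290-295 cluster took 16.1% to 17.9% of counts in E6.5 control Epi and 7.49% to 9.48% in E7.5 *Dnmt*-null Epi. For miR-302/miR-367 these shares were 14.9% to 23.3% and 12.0% to 18.5%.

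**Figure D3:**
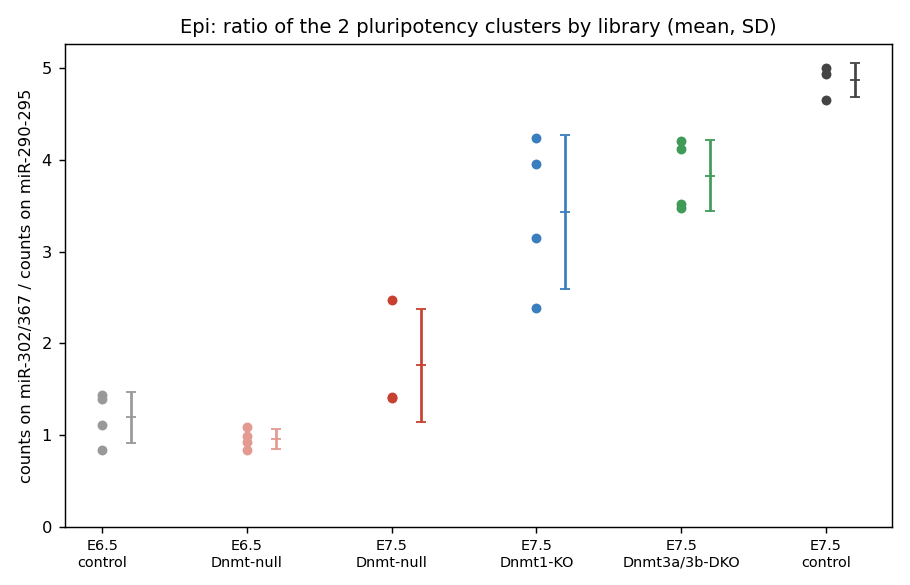
The y axis gives the counts on the miR-302/miR-367 cluster divided by those on the miR-290-295 cluster in each Epi library (points), with the mean and SD of each group beside them, for 2 groups at E6.5 and 4 at E7.5 on the x axis. The 3 *Dnmt*-null libraries of E7.5 lie between 1.40 and 2.47, under all controls of that stage.

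In the sum over the seed AAGUGCU, which counts miR-302b-3p, miR-302d-3p, miR-295-3p, miR-294-3p and miR-291a-3p together, the seed fell by 0.64 on the log2 scale (SE 0.13, edgeR adjusted p = 0.00084), and by 0.34 with TMM factors computed without the locus, which is under the threshold of size and ends the call. Of 432 seeds tested, 69 (16%) were higher and 61 (14.1%) lower. The seeds summed 88.4% to 93.6% of the counts, because only names with a mature sequence could be assigned to one.

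miRNAs that increased between E6.5 and E7.5 in embryos that gastrulated were low in *Dnmt*-null Epi. A list was made from the *Dnmt1*-KO and *Dnmt3a/3b*-DKO Epi libraries alone, of the 26 miRNAs that were higher at E7.5 than at E6.5 in them by more than 1 log2 unit. All 26 were tested here, and 23 were lower and none higher in *Dnmt*-null Epi, with a median log2 fold change of -2.56, beside 16.3% of all miRNAs that were lower. Together they made up 4.24%, 4.24% and 4.26% of control counts and 1.27%, 1.18% and 1.43% of *Dnmt*-null counts, with 0.44% to 0.62% in control Epi at E6.5. Of the 28 tested miRNAs that were lower at E7.5 in the same libraries, 15 were higher and none lower, with a median of 1.02, beside 15.6% of all miRNAs that were higher, and 10 of the 15 belong to the miR-290-295 cluster. *Dnmt*-null Epi was below *Dnmt1*-KO for 15 of the 26 and below *Dnmt3a/3b*-DKO for 18, but these genotypes made the list.

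**Figure D4:**
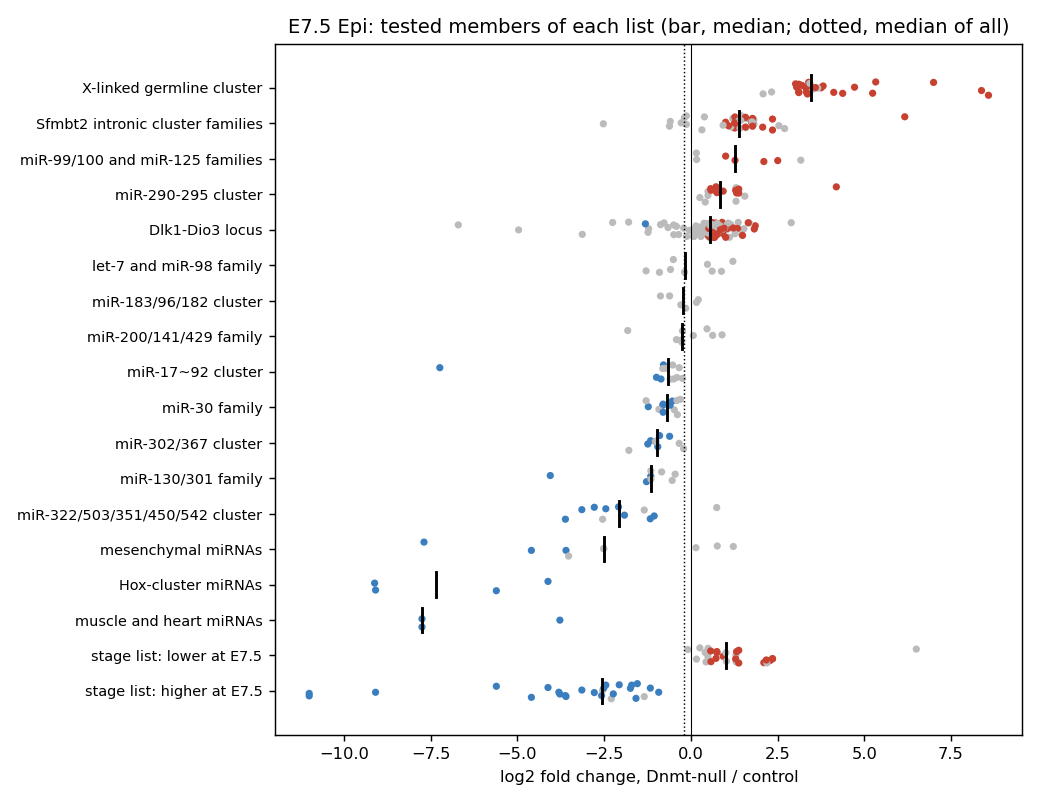
Each point is a tested miRNA of the list named on the y axis, placed by its log2 fold change between *Dnmt*-null and control Epi on the x axis (red, called higher; blue, called lower; grey, not called). Black bars are list medians, and the dotted line is the median of all 652 miRNAs, -0.19; fitted changes of miRNAs with no count in one of the groups are not bounds. The tested members of the X-linked cluster lie entirely to the right of 0 and the Hox-cluster, muscle and stage-rising miRNAs to the left.

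The Hox-cluster miRNAs, which lie between Hox genes and mark the posterior axis, were among the most reduced. The 4 that were tested, of 10 names, were all lower, and their share was 0.525%, 0.377% and 0.24% in control and 0.0154%, 0.00492% and 0.00393% in *Dnmt*-null libraries. The share was 0.00176% to 0.196% in *Dnmt1*-KO Epi, which overlaps the *Dnmt*-null range, and 0.0421% to 0.315% in *Dnmt3a/3b*-DKO Epi. Against these genotypes, 1 and 3 of the 4 were called lower in *Dnmt*-null Epi. Control Exe at E7.5 had a share of 0.0591% to 0.853%. miR-10a-5p, from the HoxB cluster, stood at 3580.2, 2856 and 1903 normalized CPM in control and at 0, 10.7 and 0 in *Dnmt*-null libraries, where only 6 reads were counted in all (log2 fold change of -9.09 ± 1.93 (SE), edgeR adjusted p = 0.0016). Values in *Dnmt1*-KO ran from 3.07 to 977 and in *Dnmt3a/3b*-DKO from 69.6 to 1398, and *Dnmt*-null differed from them by -6.11 ± 1.83 (SE, edgeR adjusted p = 0.041) and -6.72 ± 1.84 (SE, edgeR adjusted p = 0.018) log2 units. miR-10b-5p, from the HoxD cluster, went from 1803, 986 and 669 to 146, 28.5 and 31.4, with a log2 fold change of -4.12 ± 1.17 (SE), edgeR adjusted p = 0.012. Without the second *Dnmt*-null library it measured -3.69 (edgeR adjusted p = 0.059).

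miR-615-3p, from an intron of *Hoxc5*, had 239, 100.55 and 73.5 normalized CPM in control libraries and 0, 1 and 2 reads in the *Dnmt*-null libraries. The ratio of the pooled levels was 56.0, with an exact 95% counting interval of 19.1 to 272. Its call (edgeR adjusted p = 0.019) was lost without the first control library, at -4.94 (edgeR adjusted p = 0.056), and without the first or second *Dnmt*-null library, at -5.04 (edgeR adjusted p = 0.077) and -5.26 (edgeR adjusted p = 0.078). miR-10b-3p had no count in *Dnmt*-null Epi and was at least 7.01-fold lower, but its call was lost whenever any 1 *Dnmt*-null library was left out, with edgeR adjusted p-values of 0.052 to 0.071. The number of Hox-cluster miRNAs called lower was 2 without the first *Dnmt*-null library and 1 without the second. With the gene at 0 set to its bound, the median of the 4 was -4.86 in place of the fitted -7.35.

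Some miRNAs of mesoderm derivatives were lower. miR-133a-3p, a muscle miRNA, stood at 428, 408 and 133 normalized CPM in control and at 20.8, 30.3 and 17.4 in *Dnmt*-null libraries, with a log2 fold change of -3.78 ± 0.68 (SE), edgeR adjusted p = 0.00042. miR-143-3p and miR-145a-3p, from 1 cluster active in mesenchyme and smooth muscle, went from 341, 303 and 189.5 to 6.94, 39.2 and 17.4 and from 236, 194.85 and 103 to 0, 5.35 and 17.4. Their log2 fold changes were -3.60 (edgeR adjusted p = 0.00014) and -4.60 (edgeR adjusted p = 9.7e-05), and no *Dnmt*-null library reached a control for any of the 3. miR-145a-3p was also lower than in both other mutants, with differences of -4.80 and -4.85 log2 units from *Dnmt1*-KO and *Dnmt3a/3b*-DKO (edgeR adjusted p = 0.00029 and 0.00023).

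Of the 9 mesenchymal miRNAs tested 3 were lower and none higher, beside 16.3% of all miRNAs that were lower. The median was -2.51, and the third of those lower was miR-199b-5p, named to complete the count. The number lower was 2 with TMM factors computed without the locus and when any 1 library was left out. Among those not called were miR-199a-5p, with a log2 difference of 1.23 (edgeR adjusted p = 0.17), miR-143-5p, with 0.76 (edgeR adjusted p = 0.83), and miR-21a-5p, the most abundant of them, with 0.15 (edgeR adjusted p = 0.7). The list took 0.0729% to 0.106% of control and 0.0443% to 0.0768% of *Dnmt*-null counts, which overlap (two-sided exact permutation p = 0.2). The muscle and heart list had 3 tested names, all lower, but 2 of them hold identical counts: miR-1a-3p, at 14.1, 42.6 and 14.4 in control and 0 in *Dnmt*-null Epi, was at least 2.71-fold lower, and its call was lost without any 1 of the 6 libraries. Its edgeR adjusted p then ran from 0.061 to 0.13. Beside 16.3% of all miRNAs that were lower, the neural list had 12 tested names, of which 2 with identical counts were lower and none was higher. They are miR-219a-2-3p and miR-219b-5p, encoded on opposite strands of 1 locus and not told apart by these counts, at 249, 231 and 200.5 in control and 0 in *Dnmt*-null libraries, at least 26.0-fold lower. miR-9 and miR-124, defining neural miRNAs, were below 100 normalized CPM and not called.

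The X-linked miR-322/miR-503 cluster (chrX:53047997-53054349), which also encodes miR-351, miR-450 and miR-542 and whose members slow the cell cycle in differentiating muscle cells, had 8 of 11 tested members lower and none higher. The median log2 fold change was -2.08, and the share of counts was 1.01%, 0.76% and 0.707% in control and 0.13%, 0.282% and 0.238% in *Dnmt*-null libraries. It was 1.93% to 2.89% in control Exe at E7.5 and 0.179% to 0.302% in control Epi at E6.5. The part of Exe cells in this decrease was not tested. miR-351-5p stood at 5956, 4008 and 4104 normalized CPM in control and at 448, 1118 and 1000.1 in *Dnmt*-null libraries, with a log2 fold change of -2.45 ± 0.31 (SE), edgeR adjusted p = 1.5e-05. It differed from *Dnmt1*-KO by -1.57 ± 0.28 (SE, edgeR adjusted p = 0.002) and from *Dnmt3a/3b*-DKO, where it ranged from 4866 to 6147, by -2.69 ± 0.30 (SE, edgeR adjusted p = 3e-05) log2 units. miR-450a-5p went from 1265, 1116 and 1356 to 406, 595 and 659, with a log2 fold change of -1.17 ± 0.18 (SE), edgeR adjusted p = 9.7e-05. The 2 X-linked clusters thus differed from control in opposite directions on the same chromosome.

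The imprinted miRNAs outside Dlk1-Dio3 gave a mixed picture. miR-483, from an intron of the paternally expressed *Igf2*, was absent from the *Dnmt*-null libraries. miR-483-3p stood at 944, 939 and 900.2 normalized CPM and miR-483-5p at 608, 761 and 801 in the control libraries, and neither had a read in any *Dnmt*-null library. Against the limit of 3 counts per library, averaging 8.74 normalized CPM, they were at least 106-fold and at least 82.8-fold lower (edgeR adjusted p = 8.8e-06 and 0.00011). In *Dnmt1*-KO Epi miR-483-3p was at 0 to 23.6 and in *Dnmt3a/3b*-DKO Epi at 187 to 457, with no overlap between control, *Dnmt3a/3b*-DKO and *Dnmt1*-KO libraries, and 1 *Dnmt1*-KO library also had no read.

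Of the 9 imprinted miRNAs tested 4 were lower and none higher. The other two were miR-296-5p, named to complete the count, with a log2 fold change of -1.35 (edgeR adjusted p = 0.043), and miR-335-3p. The number lower was 2 with DESeq2, RLE, TMM factors computed without the locus, total counts or no filter on low counts, and without the first or second library of either genotype, while both miR-483 arms were called in all of these. miR-335-3p, from an intron of *Mest*, measured 7822, 6785 and 5365 against 4846, 3679 and 5234, a log2 fold change of -0.54 ± 0.19 (SE), edgeR adjusted p = 0.039. It was -0.22 (edgeR adjusted p = 0.43) with TMM factors computed without the locus, and lost its call with DESeq2 and without the first or second library of either genotype. miR-296-3p, from the *Nespas* region, was at 1233, 1203 and 1686 and 1083, 1037 and 1690.0, with a log2 difference of -0.11 ± 0.22 (SE, edgeR adjusted p = 0.75) whose sign changed with the scaling.

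Some abundant members of miRNA families of proliferating cells were lower. miR-92a-3p, of the miR-17~92 cluster, measured 164153, 154915 and 184998 normalized CPM in control and 98251, 81909 and 97534 in *Dnmt*-null Epi, a log2 fold change of -0.86 ± 0.10 (SE), edgeR adjusted p = 5.2e-06, and -0.54 (edgeR adjusted p = 0.00017) with TMM factors computed without the locus. miR-92b-3p, of the same seed but another gene and linked to neural progenitors, fell further, from 23075, 26468 and 29438 to 9015, 6379.9 and 8834, with a log2 fold change of -1.71 ± 0.19 (SE), edgeR adjusted p = 3.9e-06. Its level differed from both other mutants, by -0.81 ± 0.17 (SE, edgeR adjusted p = 0.0055) and -1.0 ± 0.17 (SE, edgeR adjusted p = 0.00077) log2 units. miR-25-3p, from another gene with that seed, was at 9178, 9452 and 9144 and 5582, 5291 and 6109, a log2 fold change of -0.71 ± 0.11 (SE), edgeR adjusted p = 7.5e-05, and -0.39 (edgeR adjusted p = 0.0099) with the second scaling, which is under the threshold of size. The seed AUUGCAC as a whole fell by 0.77 on the log2 scale (SE 0.075, edgeR adjusted p = 4.4e-07), and by 0.47 with the second scaling, also under the threshold of size.

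miR-26a-5p, which targets *Ezh2*, was lower in every *Dnmt*-null library, at 28564, 27466 and 23733 against 13642, 14448 and 13938, a log2 fold change of -0.92 ± 0.12 (SE), edgeR adjusted p = 2.3e-05, and -0.60 (edgeR adjusted p = 0.0017) with the second scaling. Many other moderate decreases rested on the scaling. Over all 652 miRNAs tested, 106 (16.3%) were lower with the first scaling and 60 with the second. Family counts such as 1 of 9, 2 of 8 or 1 of 4 do not stand apart from that share. With TMM factors computed without the locus, the number of members lower went from 4 of 12 to 1 in the miR-17~92 cluster, from 5 of 13 to 2 in the miR-106b~25 and miR-106a~miR-363 clusters, from 6 of 12 to 0 in the miR-30 family, from 2 of 8 to 1 in the miR-15/miR-16/miR-195 family, and from 3 of 9 to 0 in the miR-29 and miR-148/miR-152 families. With the first scaling, the 5 of the miR-106b~25 and miR-106a~miR-363 clusters were all of miR-106b~25 on chromosome 5, where 6 were tested. None of the 8 tested on the miR-106a~miR-363 stretch of chromosome X was called, with a median of -0.13. Single libraries mattered as well. When any 1 was left out, 1 or 2 were lower in the miR-17~92 cluster and in the miR-29 and miR-148/miR-152 families. In the miR-30 family, 1 was lower without the first *Dnmt*-null library and 3 without the second control or the third *Dnmt*-null library. In the miR-106b~25 and miR-106a~miR-363 clusters, 2 were lower without the first or second *Dnmt*-null library and 3 without the second control. The miR-34 family had 1 of 3 lower and the miR-23/27/24 clusters 1 of 9, and neither call was kept with the second scaling. The first was also lost without the third control or the *Dnmt*-null library numbered 2 or 3, and the second without any 1 of the 6 libraries. The calls of 3 of 8 members of the miR-130/miR-301 family and of 1 of 4 in each of the miR-221/miR-222 cluster and the miR-26 family were kept with both. miR-130b-5p went from 3529, 3611 and 3649 to 1625, 1528 and 1296, a log2 fold change of -1.28 ± 0.14 (SE), edgeR adjusted p = 3.9e-06, and miR-222-3p from 1037, 1096 and 1215 to 302.01, 439 and 575, with -1.35 (edgeR adjusted p = 0.00024).

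No member was called in either direction among the 9 tested of the miR-200/miR-141/miR-429 family, which keeps epithelial identity, the 9 of the let-7 and miR-98 family, the 6 of the miR-183/miR-96/miR-182 cluster and the 2 of the miR-101 family. miR-182-5p was at 18531, 17312 and 17570.0 and 18218, 13672 and 16367, with a log2 difference of -0.15 ± 0.10 (SE, edgeR adjusted p = 0.31) whose sign changed with the scaling. miR-200c-3p was at 5626, 5604 and 5779 and 3805, 4259 and 4694, below the threshold of size. For let-7b-5p, at 12.7, 1.14 and 54.2 and 6.94, 128 and 17.4, the spread between libraries exceeded the difference (edgeR adjusted p = 0.59).

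In the miR-99/100 and miR-125 families, some members and the summed share of counts were higher. Of 7 tested members, 4 were higher and none lower, with a median log2 fold change of 1.28, and the share of counts was 1.82%, 1.93% and 1.70% in control and 5.004%, 4.196% and 4.87% in *Dnmt*-null libraries. miR-99b-5p, encoded beside let-7e and miR-125a (chr17:17830188-17830879), stood at 9330.4, 9807 and 11111 normalized CPM in control and at 24039, 25915 and 23246 in *Dnmt*-null Epi, a log2 fold change of 1.28 ± 0.15 (SE), edgeR adjusted p = 8.1e-06. The *Dnmt1*-KO libraries, at 7488 to 9841, were in or under the control range, and those of *Dnmt3a/3b*-DKO, at 13038 to 20055, lay between. *Dnmt*-null exceeded them by 1.51 ± 0.14 (SE, edgeR adjusted p = 3.8e-06) and 0.55 ± 0.14 (SE, edgeR adjusted p = 0.0099) log2 units. miR-125a-5p was at 10166, 10129.5 and 7414 in control and at 22318, 9892 and 23371 in *Dnmt*-null libraries, of which the second overlapped the controls, and its call (log2 fold change of 1.0 ± 0.34 (SE), edgeR adjusted p = 0.03) was lost without any single library except the second *Dnmt*-null one, with edgeR adjusted p-values of 0.051 to 0.11. let-7e-5p, from the same cluster, was not called, at 189, 116 and 154 against 208, 360.1 and 129. The seed shared by miR-125a-5p and miR-351-5p showed no called change in its sum, with a log2 difference of 0.56 ± 0.25 (SE, edgeR adjusted p = 0.11).

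The families of the large miRNA cluster in an intron of the imprinted *Sfmbt2*, most abundant in trophoblast, were also higher in part of their members. Of 42 tested names 19 were higher and none lower, with a median of 1.40; counted once where names held identical counts, 12 of 33 were higher. Their share was 0.48%, 0.461% and 0.386% in control and 1.31%, 1.71% and 0.84% in *Dnmt*-null libraries. miR-466a-3p and miR-466b-3p, near-identical copies with almost the same counts, stood for the first at 1122, 991 and 928 and 2479, 3162 and 1687 normalized CPM, with a log2 fold change of 1.27 ± 0.29 (SE), edgeR adjusted p = 0.0027. These families took 8.01% to 9.93% of control Exe counts at E7.5.

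Exe miRNAs were measured with a list made from the E6.5 control libraries, of miRNAs higher in Exe than in Epi by more than 2 log2 units. Of 37 tested, 8 were higher and 7 lower in *Dnmt*-null Epi, or 6 and 7 of 30 where names with identical counts are taken once, beside 15.6% and 16.3% of all miRNAs, with a median of -0.27, and their summed share was 1.26% to 1.44% in control and 0.594% to 0.914% in *Dnmt*-null Epi. The 8 were Sfmbt2 families and miR-672-5p, while miR-351-5p and miR-483-3p were among the 7. With a threshold of 1 log2 unit, 25 of 62 were higher and 9 lower, or 18 and 9 of 49 where names with identical counts are taken once. The median over the 62 was 1.12, and the share was 6.35% to 6.94% in control and 8.42% to 9.95% in *Dnmt*-null Epi, higher in every *Dnmt*-null library. Of 30 tested miRNAs higher in Epi, 8 were lower and none higher, and 6 of these were miR-302/miR-367 members. The part of Exe cells in these results was not tested.

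Blood, endothelial and endoderm miRNAs did not move together. miR-142a-5p, from a hairpin of blood cells, rose from 63.6, 25.6 and 4.81 to 739, 756 and 1011 normalized CPM, with a log2 fold change of 4.71 ± 0.62 (SE), edgeR adjusted p = 2.9e-05. Its other arm miR-142a-3p, chosen after its values were seen, had no count in control and 2 reads in 1 *Dnmt*-null library, while the endothelial miR-126a-3p fell from 450.2, 252 and 157 to 118, 89.1 and 97.6. The latter call, -1.50 (edgeR adjusted p = 0.01), was lost without the first control library, at -1.02 (edgeR adjusted p = 0.083). In all, 1 of 15 tested blood and endothelial names was higher and 2 with identical counts were lower, beside 15.6% and 16.3% of all miRNAs. miR-142a-5p was also at 172 to 445 in *Dnmt1*-KO and 292 to 539 in *Dnmt3a/3b*-DKO Epi.

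In the endoderm and liver list 2 of 7 tested were higher and 1 was lower, beside 15.6% and 16.3% of all miRNAs. miR-375-3p, of endodermal and endocrine cells, was at 2934, 3481 and 3987 in control and at 434, 472 and 2216 in *Dnmt*-null Epi, where the third library stood apart from the other two (log2 fold change of -1.74 ± 0.43 (SE), edgeR adjusted p = 0.0052). Without that library it measured -2.93 (edgeR adjusted p = 2.6e-07). miR-192-5p went from 764, 726 and 401 to 1493, 1831 and 634, with overlapping libraries and a log2 fold change of 1.07 ± 0.33 (SE), edgeR adjusted p = 0.018, which was lost without the third control or second *Dnmt*-null library, at 0.83 (edgeR adjusted p = 0.084) and 0.76 (edgeR adjusted p = 0.12). miR-215-5p, of the same seed family, had no count in control and was at least 16.4-fold higher. miR-3473e, from 13.2, 0 and 0 to 100.67, 33.9 and 244 (log2 fold change of 4.74 ± 1.25 (SE), edgeR adjusted p = 0.0077), and miR-181c-3p, with 1.85 (edgeR adjusted p = 0.019) and a call lost without 4 of the 6 libraries singly, were the other increases taken up by the naming rule. In the miR-181 family this was the single call among 7 tested.

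**Figure D5:**
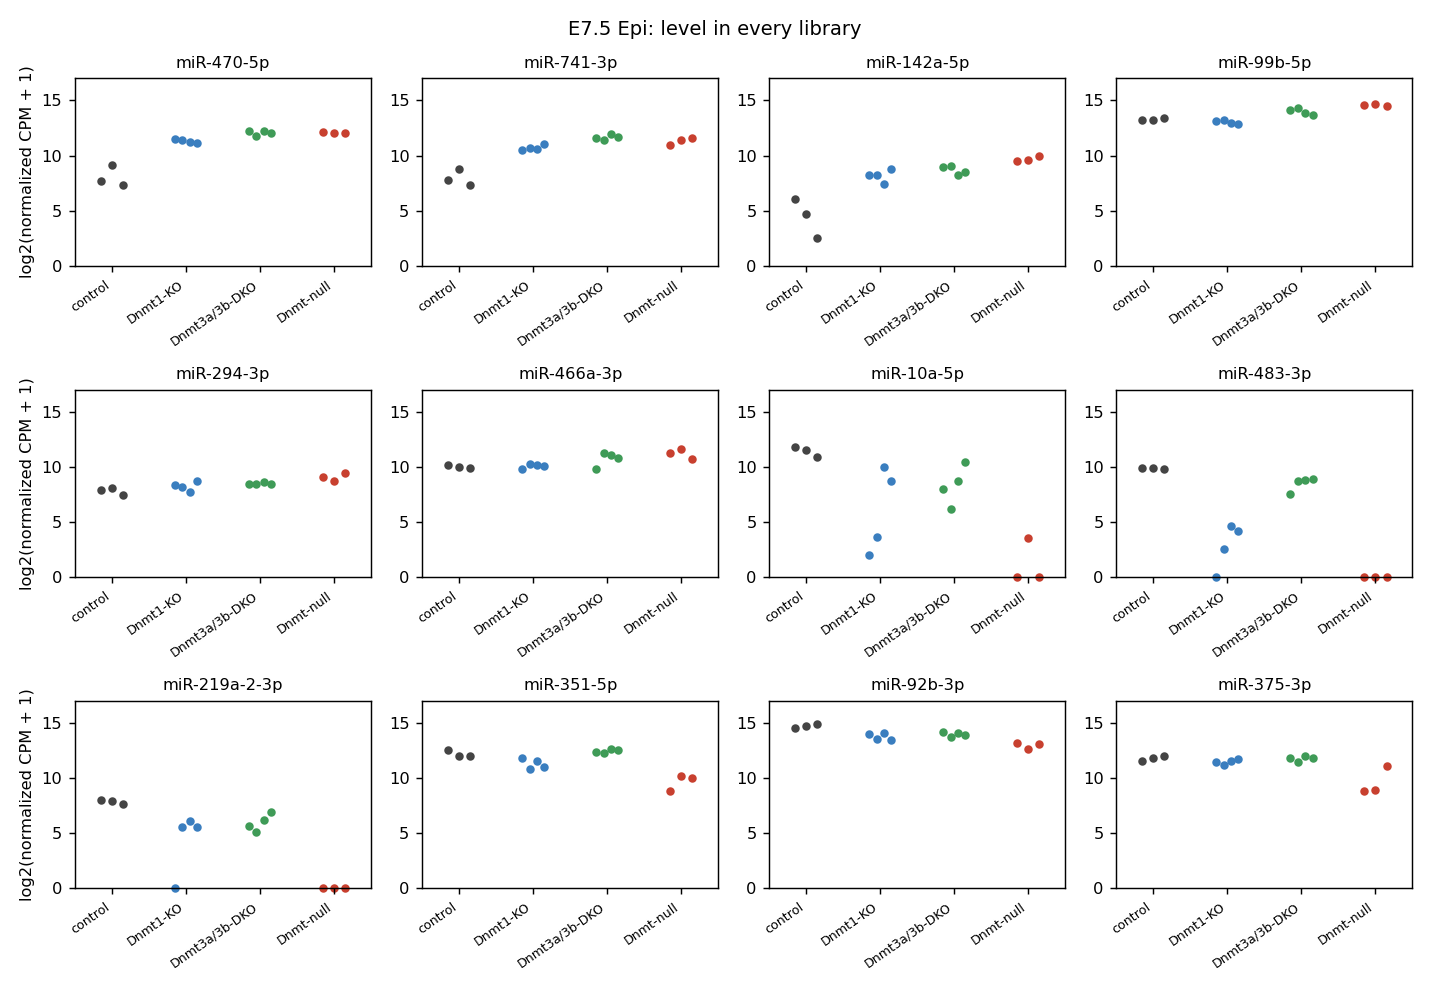
Each of the 12 panels gives the level of 1 miRNA in the E7.5 Epi libraries (points) of 4 genotypes, as log2(normalized CPM + 1) on a common y axis from 0. miR-470-5p, miR-741-3p and miR-142a-5p are raised in all mutants, miR-99b-5p most in *Dnmt*-null, and miR-10a-5p, miR-483-3p and miR-219a-2-3p are at or near 0 in *Dnmt*-null Epi.

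Inside the Dlk1-Dio3 locus, 31 of 99 tested miRNAs (31.3%) were higher and 1 was lower, with a median log2 fold change of 0.55. With TMM factors computed without the locus, 46 were higher and the median was 0.88, and with total counts 45 were higher. The locus holds maternally expressed miRNAs under an imprinting control region that is methylated on the paternal allele. The largest increases were of miR-369-3p, miR-543-3p and miR-382-5p, with log2 fold changes of 1.86 (edgeR adjusted p = 0.00074), 1.83 (edgeR adjusted p = 3.5e-05) and 1.66 (edgeR adjusted p = 0.00045). Its most abundant called members miR-127-3p, miR-409-3p and miR-494-3p rose by 0.54, 0.63 and 0.75, of which miR-127-3p fell under the threshold of size without the first *Dnmt*-null library, at 0.50 (edgeR adjusted p = 0.011). The exception was miR-540-3p, at 579, 583 and 838 in control and 323, 221 and 265 in *Dnmt*-null libraries, with a log2 fold change of -1.31 ± 0.25 (SE), edgeR adjusted p = 0.0008.

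In *Dnmt*-null compared with *Dnmt1*-KO Epi, 31 miRNAs (4.75%) were higher and 31 (4.75%) lower, and for *Dnmt3a/3b*-DKO as the reference 37 (5.67%) were higher and 56 (8.59%) lower. Outside the locus the first comparison gave 27 higher (4.88%) and 30 lower (5.42%), and the second 14 higher (2.53%) and 56 lower (10.1%). The miR-290-295 cluster was higher for 9 and 5 of 18 names, and the miR-302/miR-367 cluster lower for 3 and 4 of 10. The miR-322/miR-503 cluster was lower for 6 of 11 against each. Since the *Dnmt*-null libraries enter all 3 comparisons, these counts are not independent of that against control.

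The *Dnmt*-null effect at E7.5 was set against that in Epi at E6.5, where the libraries are others, by an interaction term. Of 658 miRNAs, 51 (7.75%) had a higher and 19 (2.89%) a lower effect at E7.5. The Sfmbt2 families took 3.64% and 5.43% of 2 E6.5 control libraries and 1.47% and 1.2002% of the other two. Without the first pair, a choice made after the data were seen, 12 had a higher and 11 a lower effect at E7.5. miR-295-3p, raised at E7.5, had an effect of the other sign at E6.5, with fitted log2 effects of 0.52 and -1.26 and a difference of 1.78 ± 0.28 (SE, edgeR adjusted p = 8.7e-06). miR-92b-3p had effects of -1.77 and 1.04, a difference of -2.81 ± 0.55 (SE, edgeR adjusted p = 0.00025), and miR-351-5p effects of -2.50 and -0.12, a difference of -2.38 ± 0.53 (SE, edgeR adjusted p = 0.0014). The X-linked miR-741-3p had positive effects at both stages, 3.24 and 1.69, with a difference of 1.55 ± 0.47 (SE, edgeR adjusted p = 0.024). Without that pair of E6.5 controls this difference was 1.07 (edgeR adjusted p = 0.31) and no longer called, and the other three were still called. Against the effect in Exe at E7.5, 2 miRNAs (0.304%) were higher and 2 (0.304%) lower in Epi, or 18 and 4 without the same pair of E6.5 controls.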

How the data were processed

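Small RNA of E6.5 and E7.5 Epi and Exe was read by CAS-seq. Per the submitters' processing notes, the authors used fastp 0.20.1 (15 to 40 bases kept), Bowtie 1.2.1.1 and the GRCm38 genome. They deposited raw counts per mature miRNA of miRBase, which include PCR copies because no molecular identifiers are stated. No column of the table used lacked a sample; 2 other tables were not used here. The members and lists were chosen with earlier results of these data known.

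Counts were tested with edgeR 4.0.16 (R 4.3.3), quasi-likelihood, TMM factors and filterByExpr (minimum count 10) over the 14 E7.5 Epi libraries of 4 genotypes, with Benjamini-Hochberg adjustment. Calls needed an adjusted p below 0.05 and an absolute log2 fold change above 0.5. Normalized CPM are counts over the TMM-scaled library total. Changes were compared with those at E6.5 and in Exe by interaction terms over 62 libraries. List shares were compared by two-sided exact permutation tests over libraries. The fit was tested on simulated data. miRNA names outside the locus were given by rule: the 8 largest increases and 8 largest decreases without overlap and with a group mean of at least 50 normalized CPM, the 8 most abundant called, up to 2 per list, let-7b-5p and miR-296-3p, and the 3 largest bounds per direction for miRNAs with at most 3 counts in each library of a group; inside it, 3 largest, 3 most abundant and any lower. Genes were placed by name on GRCm38 for 1490 of 1504 names, and 1275 had a RefSeq sequence. Same-numbered control and *Dnmt*-null libraries did not deviate together (correlations of -0.0132 to 0.0349), and no 2 libraries of a group agreed within sampling noise (chi-squared per degree of freedom of 23.3 or more). Alternatives were DESeq2 1.42.0, other scalings and filters, thinning, the replicate block leaving out each library and, chosen after seeing the data, leaving out 2 E6.5 controls.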

Additional observations from a re-analysis of the deposited data

Results flagged for a closer look

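The *Dnmt*-null effect in Epi differed between E7.5 and E6.5, tested as an interaction term, for 51 miRNAs in one direction (7.75%) and 19 in the other (2.89%) of 658 tested. As the effect at E7.5 minus that at E6.5 in log2 units, the named miRNAs with a positive difference had values of 6.28 for miR-883a-3p (edgeR adjusted p = 0.034), 5.19 for miR-291b-5p (edgeR adjusted p = 0.026), 4.74 for miR-743a-3p (edgeR adjusted p = 0.0013), 2.44 for miR-294-3p (edgeR adjusted p = 0.0031), 2.21 for miR-466a-3p (edgeR adjusted p = 0.014), 2.21 for miR-466b-3p (edgeR adjusted p = 0.014), 2.03 for miR-543-3p (edgeR adjusted p = 0.034), 1.78 for miR-295-3p (edgeR adjusted p = 8.7e-06), 1.56 for miR-291a-5p (edgeR adjusted p = 0.0012), 1.55 for miR-741-3p (edgeR adjusted p = 0.024) and 1.14 for miR-99b-5p (edgeR adjusted p = 0.034). Those with a negative difference had values of -12.28 for miR-483-5p (edgeR adjusted p = 7.9e-05), -10.52 for miR-219a-2-3p (edgeR adjusted p = 0.042), -9.18 for miR-10a-5p (edgeR adjusted p = 0.0021), -8.62 for miR-483-3p (edgeR adjusted p = 0.039), -5.70 for miR-10b-5p (edgeR adjusted p = 0.0022), -4.78 for miR-375-3p (edgeR adjusted p = 0.0021), -3.81 for miR-143-3p (edgeR adjusted p = 0.032), -3.11 for miR-540-3p (edgeR adjusted p = 0.00023), -2.81 for miR-92b-3p (edgeR adjusted p = 0.00025) and -2.38 for miR-351-5p (edgeR adjusted p = 0.0014). Fitted values of miRNAs without a count in one group, miR-483-3p, miR-483-5p, miR-219a-2-3p and miR-883a-3p, are no bounds. Without E6.5 control libraries 1 and 2, in which the Sfmbt2 families took 3.64% and 5.43% of the counts beside 1.47% and 1.2002% in libraries 3 and 4, 12 of these 21 differences were still called. The other 9 were 4.39 (edgeR adjusted p = 0.15) for miR-291b-5p, -9.81 (edgeR adjusted p = 0.14) for miR-219a-2-3p, 0.92 (edgeR adjusted p = 0.25) for miR-99b-5p, 0.79 (edgeR adjusted p = 0.63) for miR-466a-3p, 0.78 (edgeR adjusted p = 0.63) for miR-466b-3p, -3.71 (edgeR adjusted p = 0.14) for miR-143-3p, 1.07 (edgeR adjusted p = 0.31) for miR-741-3p, 6.49 (edgeR adjusted p = 0.08) for miR-883a-3p and 2.16 (edgeR adjusted p = 0.088) for miR-543-3p. The effect of miR-466a-3p at E6.5 was -1.01 with all libraries and 0.50 without that pair.

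Against the effect in Exe at E7.5, 2 miRNAs (0.304%) differed in each direction. The named ones had differences of 3.91 for miR-743a-3p (edgeR adjusted p = 0.0495), 7.02 for miR-142a-5p (edgeR adjusted p = 0.0082) and -1.10 for miR-26a-5p (edgeR adjusted p = 0.0495).

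In groups of 4 libraries, 1 library lay far from the other three in 10 of 140 groups examined (70 miRNAs in 2 genotypes), and chance flags about 1 in 20 groups. All levels are normalized CPM. miR-871-5p stood at 239.7 in 1 *Dnmt1*-KO library and at 109.7 to 122 in the other three. miR-615-3p stood at 96.8 in 1 *Dnmt1*-KO library and at 0 to 11.3 in the other three. miR-10b-5p stood at 701 in 1 *Dnmt1*-KO library and at 6.10 to 87.0 in the other three. miR-92a-3p stood at 139578 in 1 *Dnmt3a/3b*-DKO library and at 123324 to 125850.0 in the other three. miR-1a-3p stood at 28.5 in 1 *Dnmt1*-KO library and at 0 to 4.72 in the other three. miR-222-3p stood at 829.8 in 1 *Dnmt1*-KO library and at 579 to 596 in the other three. let-7b-5p stood at 283 in 1 *Dnmt1*-KO library and at 0 to 20.5 in the other three. miR-409-3p stood at 21784 in 1 *Dnmt1*-KO library and at 24284 to 24611 in the other three. miR-142a-3p stood at 22.8 in 1 *Dnmt1*-KO library and at 0 to 2.25 in the other three. miR-142a-3p stood at 0 in 1 *Dnmt3a/3b*-DKO library and at 10.8 to 12.4 in the other three.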

How the results depend on the processing

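The number of miRNAs lower outside the locus was 105 and became 59 with TMM factors computed without the locus, where 36 seeds in place of 61 were lower. Against *Dnmt3a/3b*-DKO, 37 higher became 62 with DESeq2, 65 with that scaling, 60 with no filter on low counts and 64 after thinning, and 56 lower became 35 with that scaling. Against *Dnmt1*-KO, 31 higher became 48 with no filter, and 31 lower became 18 with only the 2 groups compared. With an unadjusted p the counts were 68 higher and 63 lower against *Dnmt1*-KO, 88 lower against *Dnmt3a/3b*-DKO and 2 lower inside the locus. The differences from the effect at E6.5 numbered 51 higher and 19 lower, 32 and 29 with RLE normalization, 95 and 37 with an unadjusted p, and 12 and 11 without E6.5 control libraries 1 and 2, an alternative chosen after seeing the data. Those from the effect in Exe numbered 2 and 2, 1 and 0 with RLE, 18 and 4 without the same E6.5 libraries, and 55 and 33 with an unadjusted p. With a list threshold of 2 log2 units, 15 of 18 tested stage-rising miRNAs were lower and 2 of 9 stage-falling ones higher. With a threshold of 1, 25 of 62 Exe names and 3 of 42 Epi miRNAs were higher, and 9 and 12 were lower. Where names with identical counts are taken once, 18 of 49 Exe miRNAs were higher. The 8 lower Epi miRNAs became 5 with TMM factors computed without the locus and with no filter. The cause of these shifts was not tested. The sign of miR-182-5p turned to 0.18 with TMM factors without the locus, 0.00088 with no filter, 0.017 after thinning and 0.081 with total counts. That of miR-296-3p turned to 0.21, 0.032, 0.086 and 0.11 under the same settings. Leaving out 1 library gave -0.37 to 0.073 for it, positive without the first or second *Dnmt*-null library or the control numbered 3, and -0.88 to 2.88 for let-7b-5p, negative without the second *Dnmt*-null library.

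Leaving out 1 library gave 61 to 68 higher and 71 to 82 lower outside the locus, 26 to 30 and 1 to 2 inside it, and 59 to 66 and 48 to 59 seeds. Against *Dnmt1*-KO it gave 18 to 33 higher and 20 to 32 lower, both lowest without the second *Dnmt*-null library. Against *Dnmt3a/3b*-DKO it gave 19 to 52 higher and 38 to 60 lower, with 21 and 19 higher without *Dnmt3a/3b*-DKO library 2 or 3. Of the stage lists, 21 to 23 and 13 to 17 were called. Of the Exe list 5 to 8 were higher, with 5 without the first control or second *Dnmt*-null library, and of the Epi list 5 to 8 were lower, with 5 without the first or second *Dnmt*-null library. Same-numbered libraries share only a number here. With the replicate block 65 were higher and 94 lower outside the locus, and 4 higher and 4 lower for the difference from Exe. The low depth of the *Dnmt*-null libraries limits the decreases, since 3 counts, taken as the limit of detection, were worth 5.35 to 10.5 normalized CPM in them.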

Other observations

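Where both arms of a hairpin were tested, they moved together if both were called. Of 201 such hairpins, 38 had both arms called, all 38 in the same direction, and 73 had 1 arm called. Hairpins were counted by name, and some names, such as miR-292a and miR-292b, hold the same values, so not all are distinct. By chromosome, calls on the X were split, with 21 of 79 tested miRNAs higher and 16 lower, beside 15.6% higher and 16.3% lower over all chromosomes. On chromosome 5, 10 of 18 were lower and 1 higher, and on chromosome 15, 7 of 15 were lower and none higher.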
